A study of Mus musculus with 71 samples.

Results

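Drd1, Chrm4, Pdyn, Tac1, Isl1, Ebf1, Eya1 and Sfxn1 are marker genes of the striatal medium spiny neurons that carry the D1 dopamine receptor. They were selected by gene symbol and are 8 of the 18193 genes named by the array annotation. The data are Affymetrix arrays, on which a probe set, a group of short oligonucleotides, reports on one transcript. In all, 18 probe sets carry one of the 8 symbols, and each gene is represented here by its probe set with the highest mean log2 value over the 71 arrays, with the others given beside it.

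The study compared mice with and without one of the histone methyltransferases GLP (gene Ehmt1) and G9a (gene Ehmt2). Whole-tissue RNA came from Camk2a-Cre; GLPfl/fl or Camk2a-Cre; G9afl/fl mice and from their floxed littermate controls without Cre, in hippocampus, hypothalamus, striatum and cortex (59 arrays in 16 groups). Camk2a-Cre is driven by a promoter active in many forebrain neurons, so RNA of cells that kept the gene is part of every mutant sample. Each of these groups had 4 arrays, except the G9a-line hippocampus controls with 3 and both G9a-line cortex groups with 2. A further 12 arrays, 3 in each of 4 groups, hold RNA bound to polyribosomes of one cell type, purified through a GFP-tagged ribosomal protein (bacTRAP). Drd1 mutant pools came from mice labelled Drd1-Cre; Drd1-bacTRAP; G9afl/fl, and their controls had the same genotype without Cre. Drd2 mutant pools came from mice labelled Drd2-Cre; Drd2-bacTRAP; G9afl/fl, again with controls that lacked Cre. Every pool came from 5 mice, and every pool carried the floxed G9a alleles and a bacTRAP transgene, the controls included. Cell type and bacTRAP line therefore cannot be told apart in any comparison of Drd1 with Drd2 pools. Mice were 10 to 14 weeks old, or 12 weeks for whole tissue by the extraction protocol. A double-mutant line named in the protocols was not analysed here.

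Medium spiny neurons are the GABA-releasing projection neurons of the striatum. Those of the direct pathway carry the D1 receptor, which raises cyclic AMP through the G protein Golf, and release dynorphin and substance P, the products of Pdyn and Tac1. Those of the indirect pathway carry the D2 receptor, which lowers cyclic AMP, and release enkephalin. Isl1 and Ebf1 are transcription factors of the developing direct pathway, Eya1 is a transcriptional coactivator and phosphatase that works with homeodomain proteins, Chrm4 is the M4 muscarinic receptor, which opposes D1 signalling, and Sfxn1 is a mitochondrial serine transporter.

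Values are log2 intensities on a scale where 0 is the array's own median, so a probe set below 0 is dimmer than most of the array and has no firm level. A difference was called where limma's moderated test gave a Benjamini-Hochberg adjusted p under 0.05 over all genes tested in that comparison, and "rose" and "fell" are used only for called differences. Probe sets differ in how they bind their targets, so levels were compared between samples and never between genes. In bulk samples such as these, fewer cells of a type and less RNA per cell cannot be told apart. Replicate arrays were labelled as separate mice or pools, and the p-values measure the spread between these arrays.

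The deleted genes were checked first. Ehmt2 read 3.48 to 4.31 in the Camk2a-Cre; G9afl/fl tissues against 4.54 to 5.52 in their controls and fell in all 4 regions. Ehmt1 fell in GLP-mutant hippocampus, striatum and cortex but was not called in hypothalamus (adjusted p = 0.711). In the pools, Ehmt2 read 5.01, 1.56 and 4.93 in the Drd1 mutants against 6.22, 5.93 and 5.49 in their controls (adjusted p = 0.943). It read 6.04, 5.91 and 5.99 in the pools labelled Drd2 mutant against 5.18, 6.07 and 6.93 in their controls, and was not lower there. Ehmt1, not targeted in these mice, was also low in Drd1 mutant pool 2, at 1.53 against 3.49 and 3.44 in the others. The sources used here do not say whether these probe sets lie in the deleted parts. Neither pool comparison therefore has a check of the deletion from the targeted gene itself.

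The 8 genes lie on 5 chromosomes, and 3 of them share chromosome 13. In GRCm38.p6, Drd1 occupies chr13:54051183-54055658 on the minus strand, and Sfxn1 begins 15997 bases away at chr13:54071656-54108346. Isl1 lies on the same chromosome at chr13:116298270-116309688. Pdyn lies at chr2:129686549-129699938, Chrm4 at chr2:91922189-91929835, Tac1 at chr6:7555061-7562978, Eya1 at chr1:14168953-14311035 and Ebf1 at chr11:44618100-45008096.

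Because D1 signalling acts through cyclic AMP, the 250 bases before the annotated starts were searched on both strands for the cyclic AMP response element core TGACG. Promoters from RefSeq (GRCm38.p6) were found for 7 of the members, all but Eya1, 10 promoters in all, and 2 of the 10 hold the core, against 17.8% of the 32851 promoters in the table. Tac1 holds it 192 and 38 bases before its start, and Isl1 54 and 36 bases before. The windows of the receptor, both peptides and one transcription factor are printed 5′ to 3′ with the core, or its reverse complement, in capitals. They show the pair with matches beside the pair without.
Drd1 (chr13:54055659-54055908, minus strand): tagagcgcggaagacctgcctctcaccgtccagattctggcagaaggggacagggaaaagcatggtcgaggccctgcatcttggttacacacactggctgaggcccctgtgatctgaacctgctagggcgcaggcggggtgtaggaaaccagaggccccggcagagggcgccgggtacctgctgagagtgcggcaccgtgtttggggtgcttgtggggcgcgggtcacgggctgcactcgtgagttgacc
Pdyn (chr2:129699939-129700188, minus strand): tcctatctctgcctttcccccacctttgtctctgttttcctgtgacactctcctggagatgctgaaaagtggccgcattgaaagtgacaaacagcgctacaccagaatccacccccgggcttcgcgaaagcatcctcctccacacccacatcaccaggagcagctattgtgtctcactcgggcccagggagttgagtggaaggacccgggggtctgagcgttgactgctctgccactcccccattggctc
Tac1 (chr6:7554811-7555060, plus strand): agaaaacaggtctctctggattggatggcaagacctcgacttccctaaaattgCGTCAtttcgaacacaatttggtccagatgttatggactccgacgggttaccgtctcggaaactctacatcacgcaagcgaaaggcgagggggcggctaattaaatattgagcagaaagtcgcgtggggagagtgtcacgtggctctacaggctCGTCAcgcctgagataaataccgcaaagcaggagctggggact
Isl1 (chr13:116309689-116309938, minus strand): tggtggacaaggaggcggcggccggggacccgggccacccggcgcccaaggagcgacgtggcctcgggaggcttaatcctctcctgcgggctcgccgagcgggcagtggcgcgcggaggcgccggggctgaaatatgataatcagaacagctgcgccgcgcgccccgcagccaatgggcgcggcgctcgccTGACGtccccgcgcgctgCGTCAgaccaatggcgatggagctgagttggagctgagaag
These windows differ in base composition. G and C make up 64.0% of the Drd1 window, 57.2% of that of Pdyn, 51.2% of that of Tac1 and 71.2% of that of Isl1, against a median of 52.4% over all promoters. CpG dinucleotides number 15, 8, 17 and 33 in the same order, and the median over all promoters is 6. A match to these letters is a description of the sequence and no evidence of binding.

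The first comparison asked whether the markers separate Drd1 from Drd2 control pools. Eya1, Pdyn, Sfxn1 and Tac1 were higher in Drd1 pools, Isl1, Drd1 and Ebf1 were not called at their chosen probe sets, and Chrm4 could not be tested. Of the 7 members tested, 4 were called and all 4 were higher, where 7.70% of the 12258 genes tested were higher and 15.4% were called in either direction. At the level of single probe sets, 10 of 14 tested were higher and 0 lower, from all 7 members (10.3% of 20815 probe sets tested were higher and 17.5% were called). The 10 include the dim Eya1 probe set 1421727_at, which entered the test through the Drd1 pools alone and so adds no support.

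Eya1 showed the widest separation of the members. It read 8.16, 7.62 and 7.62 in the 3 Drd1 control pools against 3.05, 4.12 and 3.33 in the Drd2 control pools. Every Drd1 pool lay far above every Drd2 pool. The difference was 4.30 ± 0.48 (SE), 19.7-fold, with an adjusted p of 0.000171. A second probe set (1421727_at) read 0.82, 0.34 and 0.57 in Drd1 pools and -2.40, -2.13 and -2.62 in Drd2 pools, so that it passed the array median only in the former.

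Among the peptide precursors, Pdyn read 5.32, 4.89 and 4.13 in Drd1 control pools and 2.57, 3.04 and 3.66 in Drd2 control pools. The ranges did not overlap, although the lowest Drd1 pool and the highest Drd2 pool were close. Pdyn was 3.22-fold higher (1.69 ± 0.35, adjusted p = 0.00865), and with the replicate number as a block the adjusted p was 0.0594. Tac1 was bright in all pools, at 9.85, 9.75 and 9.68 in Drd1 pools and 8.78, 9.01 and 9.06 in Drd2 pools. Its Drd1 pools were all above its Drd2 pools, by 1.76-fold (0.81 ± 0.13, adjusted p = 0.00191). The call was lost with the mean of both Tac1 probe sets (0.56, adjusted p = 0.0689), of which the second lay below the array median on all 71 arrays.

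Sfxn1 read 9.16, 8.59 and 8.77 in Drd1 control pools against 7.33, 7.19 and 7.08 in Drd2 control pools. The 2 groups were well apart, by 3.11-fold (1.64 ± 0.25, adjusted p = 0.00141). Its second probe set (1417559_at) gave a wider difference of 2.56 ± 0.24 (adjusted p = 3.70e-05), with 8.34, 8.53 and 8.71 against 6.38, 5.68 and 5.84. Sfxn1 is the nearest neighbour of Drd1 on the chromosome, and the sources used here do not say which flanking sequence the Drd1-bacTRAP transgene carries. The other genes tested within 500 kb of Drd1 were not called in the control pools. Their differences included 0.13 for Hrh2, 0.50 for Cplx2 (adjusted p = 0.134), -0.21 for Thoc3 and 1.33 for Simc1 (adjusted p = 0.0827). In the mutant pools Cplx2, which encodes the synaptic protein complexin 2, was higher in Drd1 pools by 0.80 (adjusted p = 0.0243).

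For Drd1 itself the 2 probe sets gave different pictures. The brighter one (1455629_at) read 8.60, 7.96 and 7.78 in Drd1 control pools and 8.06, 8.82 and 8.49 in Drd2 control pools. The pools overlapped, and the difference was -0.35 ± 0.33 with a 95% interval from -1.07 to 0.38 (adjusted p = 0.537). The other (1456051_at) read 7.77, 7.44 and 7.34 against 6.64, 6.61 and 6.86, with no overlap, and was higher by 0.82 ± 0.19 (adjusted p = 0.0112). The brighter probe set thus did not separate the D1-receptor pools from the D2-receptor pools by the transcript of the D1 receptor.

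The transcription factors also depended on the probe set. Isl1 read 5.80, 5.65 and 6.04 at its brighter probe set in Drd1 control pools and 5.48, 5.14 and 4.57 in Drd2 control pools. These values did not overlap, but the difference of 0.76 ± 0.31 was not called (adjusted p = 0.117, 95% interval 0.09 to 1.44). At the dimmer Isl1 probe set (1422720_at) Drd1 pools read 4.84, 4.46 and 3.94 and Drd2 pools 1.44, 2.41 and 2.45, a called difference of 2.31 ± 0.55 (adjusted p = 0.0144).

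Ebf1 read 3.61, 2.97 and 3.46 in Drd1 control pools against 3.64, 4.01 and 3.00 in Drd2 control pools at its brightest probe set (1448293_at). The groups overlapped throughout and the difference was -0.20 ± 0.40 (adjusted p = 0.789). Another probe set (1416301_a_at) read 3.91, 3.84 and 4.60 against 3.05, 1.52 and 1.43, with no overlap and a difference of 2.11 ± 0.49 (adjusted p = 0.0129). The probe set 1416302_at read 4.13, 3.34 and 3.40 against 1.68, 1.69 and 1.63 and was higher by 1.96 ± 0.32 (adjusted p = 0.00198). The remaining one (1439789_at) was not called, at -0.64 (adjusted p = 0.395). Ebf1 was therefore higher in Drd1 pools at 2 of the 4 probe sets tested.

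Chrm4 had a single probe set, which lay below the array median on all 71 arrays, at -3.28 to -1.08. It read -1.92, -1.92 and -1.96 in Drd1 control pools and -1.80, -1.47 and -1.87 in Drd2 control pools. A probe set below the median on every array has no firm level, so no level of this receptor is given here.

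**Figure D1:**
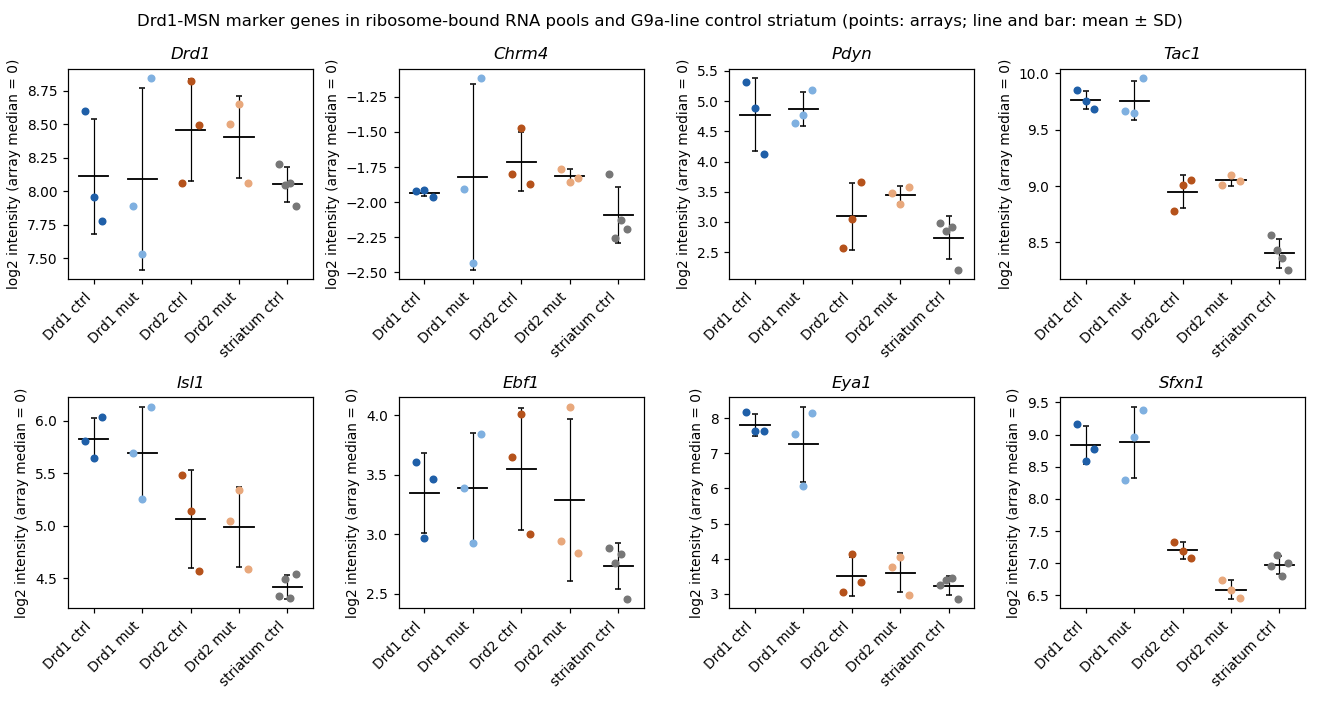
Log2 intensity (array median = 0) of the 8 marker genes in Drd1 and Drd2 control and mutant pools (3 arrays each) and in G9a-line control striatum (4 arrays), with points for arrays and a line and bar for mean ± SD. Eya1 sits at 7.62 to 8.16 in Drd1 control pools and at 3.05 to 4.12 in Drd2 control pools, whereas the Drd1 values of the pools overlap.

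**Figure D2:**
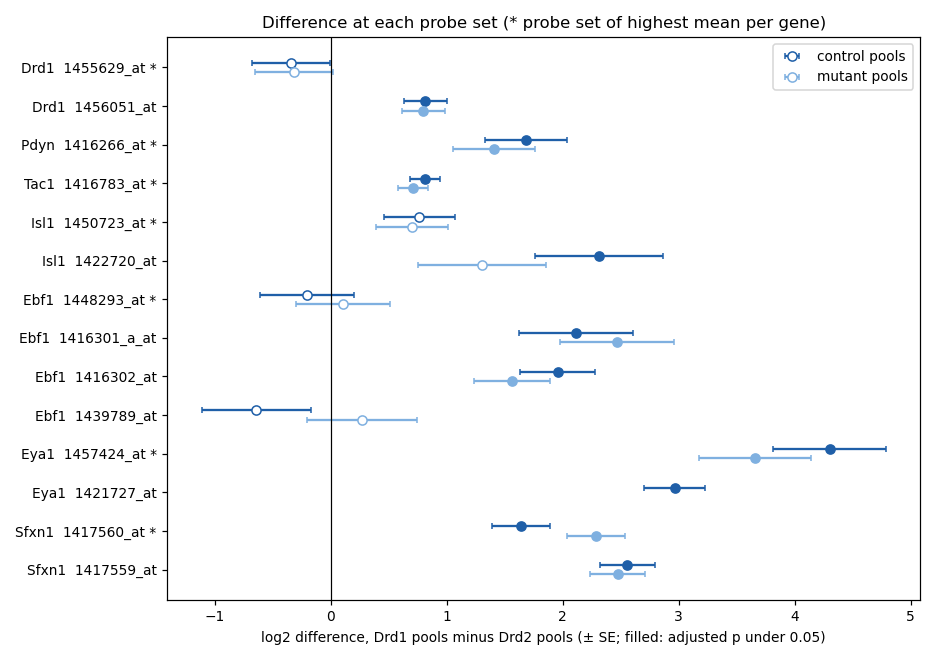
Log2 difference between Drd1 and Drd2 pools (x axis, ± SE) for each tested probe set of the marker genes (y axis), with control pools in dark and mutant pools in light blue and filled points for adjusted p under 0.05. The chosen probe sets of Drd1 and Ebf1 lie near 0, at -0.35 and -0.20 in control pools, while other probe sets of the same genes lie at 0.82 and 2.11.

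Genes around the markers were counted from lists of known roles. Of all 12258 genes tested between the control pools, 7.70% were higher in Drd1 pools and 15.4% were called in either direction. Of 6 Drd2-neuron markers, 0 were higher and 3 lower in Drd1 control pools: Drd2 by -2.84, Penk, the enkephalin precursor, by -1.06 and Gpr6 by -1.32. The median over these 6 was -1.03, beside 0.012 over all genes tested. Their summed intensity was 486 to 538 in Drd1 control pools and 918 to 1394 in Drd2 control pools. It was 534 to 600 in the G9a-line control striatum. Between Drd1 control pools and all control striatum the median difference of these 6 markers was -0.13, where the median of all genes stood at 0.67.

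The counts below stand beside 7.70% of all genes higher and 15.4% called, and in lists this small they say little by themselves. In the D1 receptor cascade, 3 of 22 genes were higher and 0 lower in the Drd1 control pools, with a median of 0.19. These were Prkacb (1.19) and Prkar2b (1.11), a catalytic and a regulatory subunit of protein kinase A, and Arpp21 (0.57), a substrate of that kinase. Among peptide receptors and processing enzymes, 2 of 7 were higher and 1 lower. Oprk1, the receptor for dynorphin, differed by 2.08, and Cpe, a peptide-trimming carboxypeptidase, by 0.44. Pcsk1, a prohormone convertase, was the lower one. It lay below the array median in all Drd1 control pools and entered the test through the Drd2 pools alone. No exact difference is given for it. Of 8 other reported Drd1-neuron markers 0 were called in the control pools (median 0.39). At an unadjusted p under 0.05, 1 of the 8 passed, beside 3708 of the 12258 genes tested. Of 11 paralogs of the members 1 was higher, Pnoc, and 3 were lower, Drd2, Penk and Eya3 (-1.01). Pnoc lay below the array median in all Drd2 control pools and entered the test through the Drd1 pools alone. Its exact difference is therefore not given. Of 19 factors of striatal development 1 was higher, Dlx6 at 2.22, and 3 were lower.

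Markers of other cell types moved with the pools as well, in a comparison where 15.4% of all genes were called. Cholinergic interneuron markers summed to 16.2 to 28.2 in Drd1 control pools and 76.8 to 85.5 in Drd2 control pools, and their defining markers Chat and Slc5a7 lay below the array median in both. Microglial markers summed to 132 to 181 against 270 to 368, with 3 of 9 lower in Drd1 pools. Of 5 choroid plexus markers tested 2 were higher in Drd1 pools, with sums of 140 to 1544 against 92.1 to 380. The part of these transcripts in the differences of the marker genes was not tested.

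The same comparison in the mutant pools used other arrays. Again 4 of 7 members were higher and 0 lower, against 6.33% of 12301 genes higher and 15.5% called in either direction. These were Eya1, Sfxn1, Pdyn and Tac1, as in the control pools. Of 13 single probe sets tested 8 were higher (8.53% of 20809 higher, 16.7% called). The median of all genes stood at -0.16 in this comparison, and the differences of the chosen probe sets relative to it are given with each value.

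Eya1 read 7.53, 6.08 and 8.14 in Drd1 mutant pools and 3.77, 4.04 and 2.97 in the pools labelled Drd2 mutant, a difference of 3.66 ± 0.48 (12.6-fold, adjusted p = 0.000521) or 3.82 relative to the median. Drd1 mutant pool 2 was its lowest Drd1 pool, and it still lay above every Drd2 pool. Sfxn1 read 8.30, 8.96 and 9.38 against 6.74, 6.58 and 6.45 and differed by 2.29 ± 0.25 (4.88-fold, adjusted p = 0.000124), or 2.45 relative to the median. Pdyn read 4.64, 4.77 and 5.18 against 3.48, 3.30 and 3.58, with no overlap, and differed by 1.41 ± 0.36 (2.66-fold, adjusted p = 0.0203), or 1.57 relative to the median. The Pdyn call was lost on leaving out Drd1 mutant pool 3 (adjusted p = 0.0545), Drd2 mutant pool 1 (0.0638) or Drd2 mutant pool 2 (0.0616), and with the replicate block (0.0911). Tac1 read 9.66, 9.65 and 9.96 against 9.01, 9.10 and 9.05 and differed by 0.71 ± 0.13 (1.63-fold, adjusted p = 0.00397), or 0.87 relative to the median.

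The members that depended on the probe set in control pools did so here too. Drd1 differed by -0.32 (-0.15 relative to the median, adjusted p = 0.539) at its brighter and 0.80 ± 0.19 (adjusted p = 0.0131) at its second probe set. Ebf1 differed by 0.10 (0.27 relative to the median, adjusted p = 0.882), 2.47 (0.00609) and 1.56 (0.00759) at the probe sets 1448293_at, 1416301_a_at and 1416302_at. Isl1 was not called at either, with 0.70 (0.86 relative to the median, adjusted p = 0.140) and 1.30 (adjusted p = 0.129). Drd1 mutant pool 2, which read 2.19 at the dimmer Isl1 probe set where the others read 4.32 and 4.54, was also the pool with the lowest Eya1.

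Loss of G9a within the pools called none of the members. Of the 7 tested, 0 were called in Drd1 pools, where 0.0249% of 12060 genes were, and 0 in Drd2 pools, where 0.0165% of 12107 genes were. At an unadjusted p under 0.05, 0 members passed in Drd1 pools and 1, Sfxn1, in Drd2 pools. Of all genes tested, 282 passed it in Drd1 pools and 170 in Drd2 pools. The members' changes ranged from -0.55 to 0.085 in Drd1 pools and from -0.61 to 0.36 in Drd2 pools. With these 3 arrays a group, the interval for Eya1 in Drd1 pools ran from -1.60 to 0.50 around -0.55.

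Sfxn1 was the member that passed the unadjusted threshold, in the Drd2 pools, where Ehmt2 was not lower. It read 6.74, 6.58 and 6.45 in the pools labelled Drd2 mutant and 7.33, 7.19 and 7.08 in the controls. All mutant pools lay below all control pools, and the change was -0.61 ± 0.25 (adjusted p = 1.00). Its second probe set changed by 0.026, so the separation was not seen there. The difference between the changes in Drd1 and Drd2 pools was 0.65 ± 0.35 for Sfxn1 and -0.64 ± 0.68 for Eya1 (both adjusted p = 0.969). In that test 0 of 7 members were called, as were 0% of 12647 genes. At an unadjusted p under 0.05, 0 of the 7 members and 170 of all genes passed.

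Against whole control striatum, the Drd1 control pools showed which markers were enriched beyond the tissue. Pools and tissue differed in how RNA was prepared, and the median of all genes stood 0.67 higher in Drd1 pools and 0.64 higher in Drd2 pools. In Drd1 pools 6 of 7 members were higher, where 62.1% of 12365 genes were higher and 75.6% called in either direction. Relative to the median shift, Eya1 stood 3.93 above striatum, Sfxn1 1.62, Pdyn 1.11, Tac1 0.81, Isl1 0.62 and Ebf1 0.30. Ebf1 and Isl1 were no longer called after quantile normalization (adjusted p = 0.120 and 0.116). Drd1 was not called (0.26 before the shift, adjusted p = 0.243), stood at -0.41 relative to it, and turned to -0.70 (adjusted p = 0.00133) after quantile normalization.

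In Drd2 control pools 4 of 7 members were higher than in striatum, where 63.4% of 12256 genes were higher and 73.3% called in either direction. Relative to the shift Ebf1 stood at 0.54, Tac1 at 0.028, Sfxn1 at 0.015, Drd1 at -0.037, Isl1 at -0.12, Eya1 at -0.34 and Pdyn at -0.55. After quantile normalization 1 was called, and Drd1 (-0.18), Tac1 (-0.14), Sfxn1 (-0.096) and Isl1 (-0.080) changed sign. Both comparisons share the striatum controls. The values of Tac1, Sfxn1, Isl1 and Drd1 in Drd2 pools thus have no direction that holds under both scalings.

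The next question was where in the brain the markers are found in control mice. Drd1, Tac1, Pdyn and Ebf1 were higher in striatum than in each of the other regions. Isl1 did not pass the test between striatum and hypothalamus, Eya1 was brightest in hippocampus, and Sfxn1 varied least between regions. Against hippocampus 6 members were higher and 1 lower of 7, where 24.4% of 11660 genes were higher in striatum, 28.5% lower and 52.9% called. Against hypothalamus 5 of 7 were higher and 0 lower (39.9% of genes higher, 73.2% called), and against cortex all 7 were higher (41.2% higher, 67.9% called, with the median of all genes at 0.11). Since most genes differed between regions, these counts say little by themselves, and the sizes are given per gene.

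Drd1 read 7.45 to 8.21 (median 7.85) on the 8 striatum control arrays, 4.54 to 5.31 (median 4.87) on the 6 cortex arrays, 1.36 to 2.05 (median 1.58) on the 8 hypothalamus arrays and 1.18 to 1.76 (median 1.65) on the 7 hippocampus arrays. Striatum stood clear of cortex, and cortex of the rest, while hypothalamus and hippocampus overlapped. The striatal level was 78.2-fold that of hippocampus (6.29 ± 0.13), 74.6-fold that of hypothalamus (6.22) and 7.92-fold that of cortex (2.98, or 2.88 relative to the median of all genes).

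Tac1 read 7.94 to 8.56 (median 8.29) in striatum, 7.04 to 7.58 (median 7.36) in hypothalamus, 6.66 to 6.95 (median 6.81) in cortex and 3.61 to 4.40 (median 4.32) in hippocampus. No neighbouring regions overlapped in this order. Striatum was 1.88-fold above hypothalamus, 2.80-fold above cortex and 17.9-fold above hippocampus.

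Pdyn read 2.21 to 3.46 (median 2.97) in striatum, 1.36 to 2.00 (median 1.67) in cortex, -0.86 to 1.79 (median 0.49) in hypothalamus and -0.67 to 0.081 (median -0.056) in hippocampus. Striatum lay above the others, whose ranges overlapped in part. It was 2.64-fold above cortex and at least 7.97-fold above hippocampus, a lower bound because the hippocampal mean was below the array median. It was also higher than hypothalamus, but no fold over both lines is given, since the GLP-line hypothalamus controls lay below the array median.

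The spread of Pdyn in hypothalamus followed the mouse line. GLP-line controls averaged -0.70, all below the array median, and G9a-line controls 1.46. Striatum exceeded hypothalamus by 1.28 in the G9a line, and for the GLP line no exact difference is given. Drd2-neuron markers differed in the same way, with sums of 19.7 to 28.2 in GLP-line and 69.8 to 77.7 in G9a-line hypothalamus controls. The line and the conditions under which its arrays were run cannot be told apart, and the part of these markers in the Pdyn values was not tested.

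Isl1 read 4.31 to 4.88 (median 4.52) in striatum and 4.44 to 5.23 (median 4.89) in hypothalamus, and these regions overlapped (-0.32, adjusted p = 0.265). It read 1.61 to 2.40 (median 2.13) in cortex, 5.35-fold below striatum. The hippocampal arrays ran from -3.54 to 1.15, with a mean below the array median, and striatum was at least 23.2-fold higher.

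Ebf1 read 1.82 to 2.88 (median 2.40) in striatum, 0.44 to 1.75 (median 1.00) in hypothalamus, 0.13 to 0.45 (median 0.26) in cortex and -1.10 to 0.033 (median -0.47) in hippocampus. Striatum did not overlap any other region, while hypothalamus and cortex touched. It was 2.48-fold above hypothalamus, 4.31-fold above cortex and at least 5.18-fold above hippocampus.

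Eya1 followed another order, with 3.76 to 4.83 (median 3.94) in hippocampus, 2.86 to 3.46 (median 3.18) in striatum, 2.52 to 2.94 (median 2.67) in cortex and 1.02 to 1.64 (median 1.32) in hypothalamus. Hippocampus lay above striatum without overlap, and striatum was lower by -1.06 ± 0.11 (adjusted p = 1.50e-11). Striatum and cortex overlapped slightly, and the 1.38-fold difference was lost with the mean of all Eya1 probe sets (0.052, adjusted p = 0.598) and in the G9a line alone (0.41, adjusted p = 0.0546). The gene with the widest difference between Drd1 and Drd2 pools was thus not highest in striatal tissue.

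Sfxn1 read 5.84 to 7.13 (median 6.67) in striatum, 5.80 to 6.63 (median 6.35) in hypothalamus, 5.52 to 6.52 (median 5.84) in hippocampus and 5.04 to 5.35 (median 5.14) in cortex. Only cortex lay apart from striatum, by 2.59-fold, and the second probe set gave 0.18 for that difference (adjusted p = 0.101). Against hypothalamus the brighter probe set gave 0.23 (adjusted p = 0.104) and the second -0.47 (adjusted p = 7.05e-06), so the direction depended on the probe set. Against hippocampus the difference was 1.38-fold (0.47, adjusted p = 0.00288), and it was not called in the GLP line alone (0.39, adjusted p = 0.0755).

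**Figure D3:**
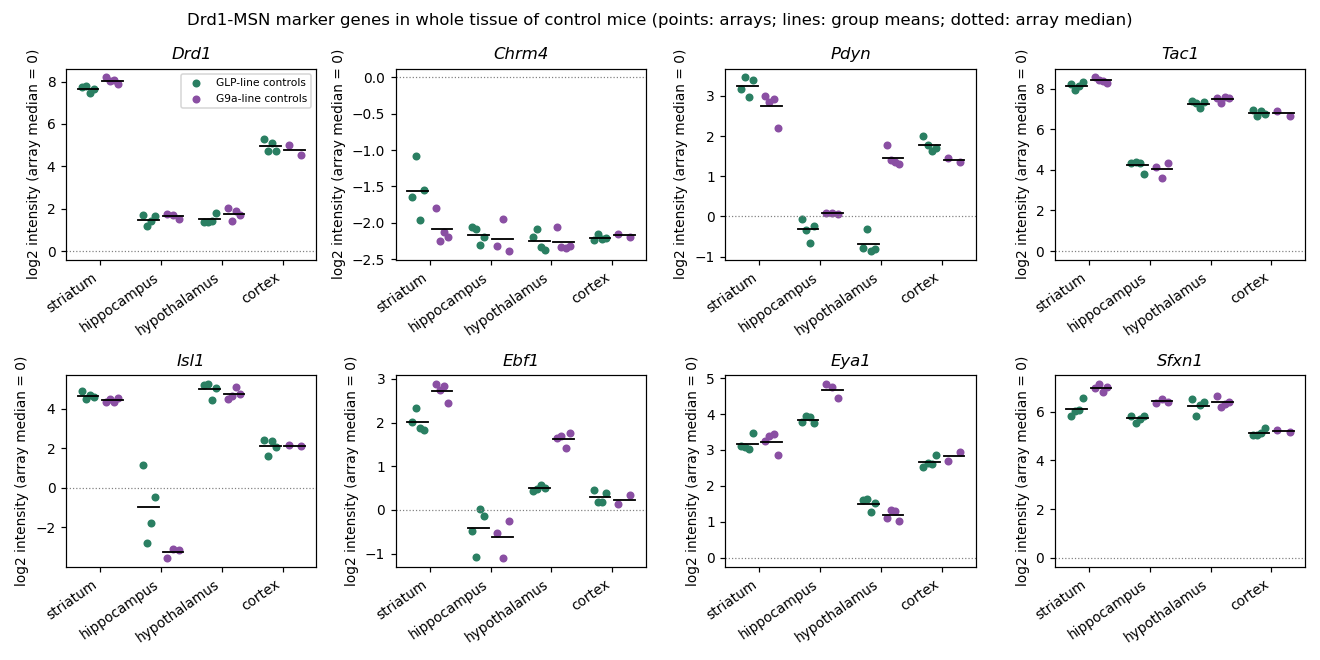
Log2 intensity (array median = 0, dotted line) of the 8 marker genes on whole-tissue control arrays of the GLP (green) and G9a (purple) lines in 4 regions, with points for arrays and lines for group means. Drd1 falls from 7.45 to 8.21 in striatum to below 2.06 in hypothalamus and hippocampus, Eya1 is highest in hippocampus at 3.76 to 4.83, and Chrm4 lies below the array median throughout.

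Over the means of all 20 groups, the genes whose pattern was most like that of Drd1 were Ptpn5 (Pearson r = 0.989), Rarb (0.986), Stard10 (0.986), Syndig1l (0.984) and Rasgef1b (0.983), out of 13405 genes. For the mean of the 8 members they were Cacng4 (0.976), Rgs9 (0.971), Gnal (0.970), Rxrg (0.970) and Pde7b (0.969). Ptpn5 encodes the striatum-enriched phosphatase STEP, Gnal the alpha subunit of Golf, and Rgs9 a regulator of G-protein signalling. Among the members themselves, Drd1 and Pdyn correlated at 0.92 and Tac1 and Isl1 at 0.94, while Eya1 and Isl1 stood at -0.10. The groups share tissues, lines and pool preparation, so these values describe the 20 groups and carry no test.

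In whole tissue the markers were then compared between mutants and controls. Across 8 such comparisons, 2 called differences were found among the members, a rise of Drd1 in G9a-mutant hypothalamus and a rise of Pdyn in GLP-mutant hippocampus. No member fell. Pdyn passed the filter on low values in hippocampus of the GLP line through the mutants alone, since all controls lay below the array median. In striatum no member was called for either deletion.

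In G9a-mutant hypothalamus 1 of 7 members was called, where 2.34% of 11733 genes were. Drd1 read 2.75, 1.93, 3.70 and 3.14 in the mutants and 2.05, 1.40, 1.90 and 1.72 in the controls. Mutants 1, 3 and 4 lay above all controls, and mutant 2 lay within their range. The rise was 1.11 ± 0.18 (95% interval 0.75 to 1.48), 2.16-fold, with an adjusted p of 7.17e-05. The second probe set read 2.13, 0.97, 2.72 and 2.36 against 1.36, 1.21, 1.32 and 1.37. It rose by 0.73 ± 0.19 (adjusted p = 0.0236) with mutant 2 included, although mutant 2 lay below all controls there.

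The spread in this test was estimated over all 59 tissue arrays. With only the 8 arrays compared, the adjusted p for Drd1 was 0.580. The SD was 0.74 among the mutants and 0.28 among the controls, and the part of this in the loss of the call was not tested. On leaving out each array in turn the adjusted p lay between 8.57e-09 and 0.00277. Without mutant 2, Sfxn1 was called as well (0.55, adjusted p = 0.00297), against 0.16 with it.

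No other medium spiny neuron transcript on these lists was called with Drd1 in this tissue. The list counts at an unadjusted p under 0.05 stand beside 1898 of all 11733 genes tested. Of 18 shared identity genes of medium spiny neurons 0 were called (4 at an unadjusted p under 0.05, median change 0.094 beside 0.012 over all genes), and their summed intensity was 540 to 735 in mutants and 583 to 699 in controls. Of 5 Drd2-neuron markers tested 0 were called (1 at an unadjusted p under 0.05, sums 61.2 to 104 against 69.8 to 77.7), and of 22 genes of the D1 receptor cascade 0 were called (4 at an unadjusted p under 0.05). Pdyn, Tac1, Isl1, Ebf1 and Eya1 were not called either. Choroid plexus markers summed to 21.5 to 40.9 in these mutants and 12.3 to 17.7 in controls, with 0 of 2 tested called (1 at an unadjusted p under 0.05), and their part in the Drd1 values was not tested. Their defining markers Folr1, Kcne2, Aqp1, Otx2 and Kcnj13 lay below the array median on all arrays of both groups.

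The change of Drd1 on G9a loss differed between regions. It exceeded that in striatum by 1.41 ± 0.26 (adjusted p = 0.000927, 0.671% of genes called) and that in cortex by 1.55 ± 0.31 (adjusted p = 0.00818, 0.194% of genes called). The difference from the change in hippocampus was not called (adjusted p = 0.333), nor was that between GLP and G9a loss in hypothalamus (-0.66, adjusted p = 0.444). These tests were chosen after the values were seen.

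In GLP-mutant hypothalamus 0 of 6 members were called, where 1.01% of 11531 genes were. At an unadjusted p under 0.05, 1 member passed, as did 1085 of all genes tested. That member was Drd1, at 2.04, 1.82, 2.05 and 1.88 in mutants and 1.38, 1.36, 1.43 and 1.82 in controls. The lowest mutant and the highest control both read 1.82, the mutants otherwise lay above the controls, and the change was 0.45 (adjusted p = 0.367).

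In GLP-mutant hippocampus 1 of 5 members was called, where 2.05% of 11681 genes were. At an unadjusted p under 0.05, 3 members passed, as did 859 of all genes tested. Drd1 changed by 0.45 and Tac1 by -0.28, and neither was called. The second Drd1 probe set averaged 1.11 in mutants and 1.19 in controls. Pdyn read 0.34, 0.40, 0.42 and 0.18 in mutants and -0.056, -0.34, -0.67 and -0.23 in controls. All mutants lay above the array median and all controls below it. The rise was 0.66 ± 0.17 (adjusted p = 0.0235), at least 1.26-fold. Pdyn entered this test through the mutants alone, and with no filter on low values its adjusted p was 0.0291, while the stricter filter left it untested. It was lost on leaving out mutant 1, 2 or 3 or control 2 or 3 (adjusted p 0.0614 to 0.194), on setting values below the median to it (0.547) and with only the groups compared (0.0553).

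Choroid plexus transcripts moved with the GLP-mutant hippocampus. Of 8 markers of that tissue 7 rose, with sums of 1085 to 1236 in mutants and 318 to 1004 in controls, and their part in the Pdyn difference was not tested.

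In G9a-mutant hippocampus 0 of 5 members were called, where 2.72% of 11738 genes were. At an unadjusted p under 0.05, 2 members passed, as did 1404 of all genes tested. Pdyn read 0.63, 0.93, 0.77 and 0.51 in mutants and 0.073, 0.081 and 0.065 in controls, with no overlap, a change of 0.64 ± 0.19 (adjusted p = 0.0502). With the replicate block it was 0.70 (adjusted p = 0.0350). Drd1 read 2.12, 2.21, 2.01 and 2.08 in mutants and 1.76, 1.69 and 1.49 in controls, also with no overlap, and its change of 0.46 was not called (adjusted p = 0.285). At the second Drd1 probe set the groups overlapped, with 1.346 to 1.829 in mutants and 0.945 to 1.354 in controls. Isl1 and Ebf1 were too dim in hippocampus to be tested.

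**Figure D4:**
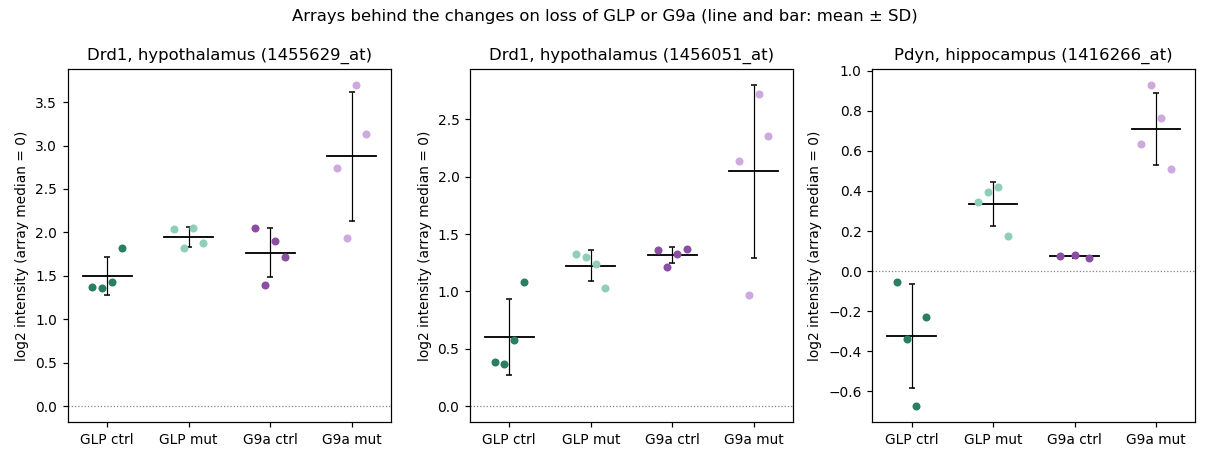
Log2 intensity (array median = 0, dotted line) of Drd1 in hypothalamus at both probe sets and of Pdyn in hippocampus, in controls and mutants of the GLP and G9a lines, with points for arrays and a line and bar for mean ± SD. G9a-mutant Drd1 runs from 1.93 to 3.70 in hypothalamus against 1.40 to 2.05 in controls, and GLP-mutant Pdyn lies above 0 where its controls lie below.

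In GLP-mutant striatum 0 of 7 members were called, where 1.67% of 11546 genes were. At an unadjusted p under 0.05, 1 member passed, as did 1184 of all genes tested. That member was Eya1, with a change of 0.36 (adjusted p = 0.354), followed in size by Pdyn at 0.31 (adjusted p = 0.580). Drd1 stood at -0.033.

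In G9a-mutant striatum 0 of 7 members were called, where 3.02% of 11567 genes were. At an unadjusted p under 0.05, 1 member passed, as did 1458 of all genes tested. Tac1 read 8.06, 8.05, 7.88 and 8.20 in mutants and 8.56, 8.43, 8.36 and 8.26 in controls, a change of -0.36 ± 0.13 (adjusted p = 0.135). Drd1 read 7.69, 7.74, 7.81 and 7.78 in mutants and 8.21, 8.05, 8.06 and 7.89 in controls, a change of -0.30 ± 0.18 (adjusted p = 0.538). Mutants lay below controls without overlap for both genes at these chosen probe sets. At the second Drd1 probe set (1456051_at) the groups overlapped, with 6.35 to 6.76 in mutants and 6.72 to 6.99 in controls. With only these 8 arrays in the fit, both genes were called at their chosen probe sets (adjusted p = 0.0417 for each).

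Sums over some lists of striatal genes were lower in the same mutants without overlap, and sums over other such lists overlapped. The 18 shared identity genes of medium spiny neurons summed to 3834 to 4143 in mutants and 4321 to 4582 in controls, with 0 called (3 at an unadjusted p under 0.05, median change -0.11). The 22 genes of the D1 receptor cascade summed to 4387 to 4840 against 4926 to 5110, with 0 called (4 at an unadjusted p under 0.05, median change -0.080). These lists share genes, Rgs9 and Gnal among them. The Drd2-neuron markers overlapped, with sums of 422 to 560 in mutants and 534 to 600 in controls. So did the other Drd1-neuron markers, with 141 to 176 against 140 to 193. The part of any of these lists in the values of Tac1 and Drd1 was not tested.

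Beside these, Oprk1, the dynorphin receptor, fell by 0.80 in G9a-mutant striatum, 1 of 5 peptide receptor and processing genes tested. Cortical excitatory neuron markers rose there, 4 of 4 tested, where 3.02% of 11567 genes were called. Their sums overlapped, at 10.7 to 22.5 in mutants and 2.18 to 22.1 in controls. The part of these markers in the values of Tac1 and Drd1 was not tested. The difference between GLP and G9a loss in striatum was called for 0 of 7 members (lowest adjusted p 0.805), where 0.00842% of 11874 genes were called. At an unadjusted p under 0.05, 0 of the 7 members and 772 of all genes passed.

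Cortex gave 0 called members of 7 for GLP loss, where 1.54% of 11586 genes were called, and 0 of 7 for G9a loss, where 0.728% of 11679 were. In each case 1 member, Tac1, passed an unadjusted p under 0.05. Of all genes tested, 790 passed it for GLP loss and 372 for G9a loss. Tac1 read 6.52, 6.60, 6.30 and 6.42 in GLP mutants and 6.95, 6.66, 6.88 and 6.73 in controls (-0.35, adjusted p = 0.294). In the G9a line it read 6.43 and 6.20 in mutants and 6.89 and 6.67 in controls (-0.47, adjusted p = 0.758). Mutants lay below controls in both lines, and Drd1 changed by -0.33 (adjusted p = 0.822) and -0.44 (adjusted p = 1.00). With only the groups compared in the fit, Tac1 was called lower in both lines (adjusted p = 0.0372 for GLP and 0.0433 for G9a loss).

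**Figure D5:**
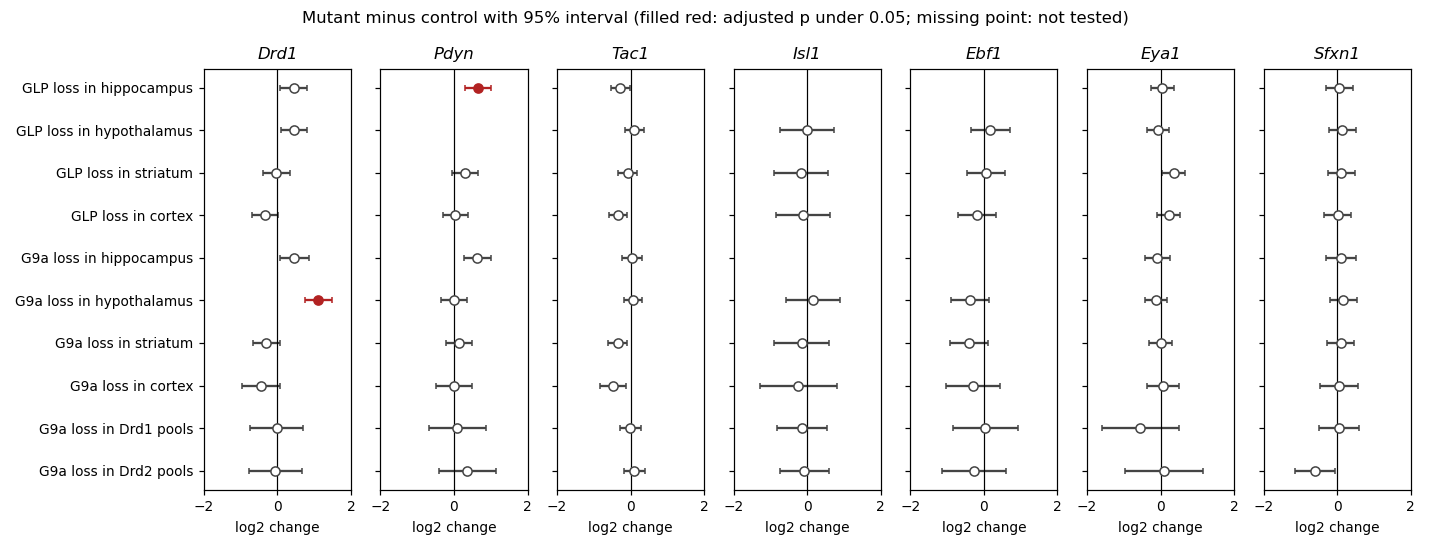
Log2 change, mutant minus control (x axis, with 95% interval), of 7 marker genes in 8 tissue comparisons and in Drd1 and Drd2 pools (y axis), with filled red points for adjusted p under 0.05. Red points are Drd1 in G9a-mutant hypothalamus (1.11) and Pdyn in GLP-mutant hippocampus (0.66).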

How the data were processed

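Affymetrix arrays measured 71 RNA samples, labelled after 2 rounds of amplification. Per the submitters' processing notes the authors made the deposited intensity values with GCRMA, version not given, and each array's median was 1. The intensities were turned to log2 with no floor. Of 45101 probe sets, 34945 carry 1 gene symbol, 932 several and 9160 none, and 64 are controls.

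Groups came from the labels (for 1 G9a-line hypothalamus control, title and source number the mouse differently, and the title was followed). Limma 3.58.1 in R 4.3.3 fitted the 12 pool arrays, the 59 tissue arrays or, for pools against striatum, all 71, with an intensity trend and Benjamini-Hochberg adjustment over the genes tested. A gene was tested where it exceeded log2 0 on as many arrays as the smaller group holds. The scripts were tested on simulated data. The number of arrays limits the precision.

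The members and the gene lists were chosen with earlier results of these data known. Named are all 8 members, the deleted genes, genes of each list with the smallest p among those called, and the 5 genes most like Drd1 and most like the mean of the members. Genes near Drd1 and the tests between regions were added after values were seen.

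Same-numbered arrays correlated over 0.1 in every pair for G9a loss in Drd2 pools (0.16 to 0.49). Among GLP-line controls they did so between striatum and cortex or hippocampus (0.17 to 0.46). The main tests were all unpaired, and the number entered only as the replicate block among the alternatives. Alternatives were no or a stricter filter, a floor, quantile normalization, the mean of probe sets, only the groups compared, array weights, no trend, a robust step, the replicate block and leaving out each array.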

Additional observations from a re-analysis of the deposited data

Results flagged for a closer look

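Of 104 groups of 4 arrays checked, 12 held an array whose gap to the others was a large share of the group's range, where chance gives about 1 in 20. Drd1 read 1.82 on GLP-line hypothalamus control 4 against 1.36 to 1.43 on the others. Pdyn read 2.21 on G9a-line striatum control 4 against 2.85 to 2.99, and -0.32 on GLP-line hypothalamus control 2 against -0.86 to -0.78. Tac1 read 3.81 on GLP-line hippocampus control 4 against 4.32 to 4.40. On G9a-mutant hypothalamus array 2, Eya1 read 0.46 against 1.21 to 1.33 and Sfxn1 5.39 against 6.82 to 7.01, and this is the array on which Drd1 did not exceed its controls. Ebf1 read -0.30 on GLP-mutant cortex array 2 against 0.22 to 0.28, and 1.15 on GLP-mutant striatum array 2 against 2.33 to 2.43. The other 4 concern Chrm4, all below the array median: -2.84 on G9a-mutant hippocampus array 3, -2.06 on G9a-line hypothalamus control 1, -1.72 on GLP-mutant hippocampus array 4 and -3.28 on GLP-mutant hypothalamus array 3.

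The change of Drd1 on G9a loss stood out between regions. It was larger in hypothalamus than in striatum by 1.41 and than in cortex by 1.55, both called (adjusted p = 0.000927 and 0.00818). The change in hippocampus exceeded that in striatum by 0.76 (adjusted p = 0.275) and that in cortex by 0.90 (adjusted p = 1.00). Neither of these was called. At the brighter Drd1 probe set all hippocampal mutants lay above their controls and all striatal and cortical mutants below theirs. Each cortex group held 2 arrays. At the second probe set the hippocampal and striatal groups overlapped, and the cortical mutants again lay below their controls. In all, 111 member differences in 16 contrasts were tested, and 2 were called.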

How the results depend on the processing

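Of 198 recomputed counts of called members, 180 stayed within 1.5 times the reported count and 18 moved. GLP loss in hippocampus called 1 member and 0 with a floor, 0 with the stricter filter, 0 with only the groups compared and 3 with array weights. With only the groups compared, the counts were 1 for GLP cortex, 0 for G9a hypothalamus, 2 for G9a striatum and 1 for G9a cortex. With array weights they were 2 for GLP cortex, 2 for G9a hippocampus, 2 for G9a hypothalamus, 1 for G9a striatum and 2 for G9a cortex. In both settings the calls in striatum and cortex were lower in mutants, Tac1 each time and Drd1 beside it where the count was 2. Array weights also called Tac1 lower (-0.37, adjusted p = 0.0138) and Drd1 higher (0.48, adjusted p = 0.0109) in GLP hippocampus. The calls they added in G9a hippocampus and hypothalamus were higher in mutants. G9a hippocampus gave 1 with a floor, 1 without the trend and 1 with the replicate block. Drd2 pools against striatum gave 1 after quantile normalization and 2 with G9a arrays alone, a setting added after seeing the data. The cause of these moves was not tested. On leaving out single arrays the counts ran from 0 to 1 for GLP hippocampus, 1 to 2 for G9a hypothalamus, 3 to 4 for the mutant pools and 3 to 4 for Drd2 pools against striatum.

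The replicate block gave 3 calls in place of 4 in the control pools and in the mutant pools, Pdyn being lost in each (adjusted p = 0.0594 and 0.0911), and changed no other count beside G9a hippocampus, those between regions included.

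Signs turned in 12 cases. Ebf1 in control pools was 0.76 with the mean of probe sets and 0.027 without Drd2 control pool 2, and ran from -0.48 to 0.027 over single arrays left out. In mutant pools it was -0.13, -0.068 and -0.12 without Drd1 mutant pool 3, Drd2 mutant pool 1 and Drd2 mutant pool 3, in a range up to 0.49. Sfxn1 in striatum against hypothalamus was -0.12 with the mean of probe sets and -0.12 with GLP arrays alone. After quantile normalization Drd1 was -0.70 in Drd1 pools against striatum, and in Drd2 pools Drd1 was -0.18, Tac1 -0.14, Sfxn1 -0.096 and Isl1 -0.080.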

Other observations

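Dach2, a partner of Eya proteins, rose on loss of either methyltransferase in all 8 tissue comparisons and in both sets of pools, with mean log2 levels of 5.74 in Drd1 mutant pools against 0.0072 in their controls (adjusted p = 0.000214) and 2.99 in the pools labelled Drd2 mutant against -0.75 in theirs (adjusted p = 0.0159). Eya1, its partner among the marker genes, was not called in any of these comparisons. Dach2 lay below the array median on all control arrays of the Drd2 pools, of striatum and cortex in both lines and of G9a-line hippocampus. In those comparisons Dach2 entered the test through the mutants alone. Cort, the cortistatin precursor found in interneurons, was higher in Drd1 than in Drd2 control pools at a mean log2 level of 0.45 against -2.29, the latter below the array median. It entered that test through the Drd1 pools alone. Ebf2, a paralog of Ebf1, rose in GLP-mutant hypothalamus, from a mean log2 level of -0.60 to 0.48 (adjusted p = 0.0248). All of these controls lay below the array median, so Ebf2 entered the test through the mutants alone.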
